A study of Mus musculus with 3 samples.

Results

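The cytosolic ribosome is built from ribosomal RNAs and a set of ribosomal proteins, each encoded in the mouse by its own gene. The 85 genes described here are those of 14355 in the table whose symbols name a protein of the large subunit (Rpl, 52 genes) or the small subunit (Rps, 33 genes), Rplp0, Rplp1, Rplp2 and Rpsa included. Of them, 77 encode the standard proteins and 8 have symbols of second copies (paralogs). C57BL/6 mice of both sexes, pooled, gave naive CD4 T cells out of their spleens and lymph nodes at 8 to 12 weeks of age, and the cells were freshly sorted. The gate took live singlets with CD4, TCRb, CD5 and CD62L on their surface and without CD44, CD25 or CD8. Index sorting recorded the CD5 fluorescence of each cell, and CD5 served as a stand-in for the strength of tonic signals from self-ligands. The authors' CD5 classes Low, Middle and High hold 24.96%, 50.07% and 24.96% of the 697 cells, and plates 1, 2 and 3 hold 24.7%, 28.8% and 46.5%. The labels name no agent or allele that sets the classes apart.

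Ribosomal protein genes are among the most heavily transcribed genes of any growing or resting cell, and their products must be made in matching amounts because a ribosome holds a single copy of most of them. Their mRNAs carry a 5′ terminal oligopyrimidine (5′ TOP) sequence: the first base is a C and an unbroken run of C and T follows. Through that sequence LARP1 and the mTOR kinase set how much of these mRNAs is translated, which lets a T cell raise ribosome output on activation without first making new mRNA.

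The starts of 12 genes are shown because the run stands exactly at the start that RefSeq annotates. Each window holds 10 bases before and 20 bases from that start, from the RefSeq tables on GRCm38.p6, with the run of C and T from the first base in capitals.
Rps6: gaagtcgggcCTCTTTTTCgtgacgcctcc
Rps21: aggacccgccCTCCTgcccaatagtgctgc
Rpl15: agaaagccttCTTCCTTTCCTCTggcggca
Rps10: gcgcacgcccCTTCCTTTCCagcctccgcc
Rps18: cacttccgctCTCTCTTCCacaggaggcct
Rpl38: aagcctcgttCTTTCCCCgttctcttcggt
Rpl35: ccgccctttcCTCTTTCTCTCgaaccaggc
Rpl28: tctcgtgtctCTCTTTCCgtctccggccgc
Rpl14: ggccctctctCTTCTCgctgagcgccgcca
Rplp2: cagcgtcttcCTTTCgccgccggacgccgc
Rps15a: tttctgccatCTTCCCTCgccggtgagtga
Rps27: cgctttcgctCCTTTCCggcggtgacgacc

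These windows lie at chr4:86857348-86857377 (minus strand) for Rps6, chr2:180257369-180257398 (plus strand) for Rps21, chr9:120571507-120571536 (plus strand) for Rpl14 and chr3:90213629-90213658 (minus strand) for Rps27. RefSeq windows were found for 64 of the 85 genes, and the first listed window of each gene was searched. A C followed by at least 4 pyrimidines stood at the annotated start of 12 of the 64 (18.8%), against 380 of all 17492 protein-coding genes with a window (2.17%). Letters were sought within 50 bases on either side of the start. The letters CTCTTT were read on the strand with the mRNA's sequence in 18 of 64 ribosomal protein genes (28.13%), against 3.47% of all genes. On the opposite strand they were read in 1.56%, against 3.09%. The letters CTTTCC overlap with CTCTTT where a run reads CTCTTTCC. They were found on the mRNA's strand in 28.13%, against 4.34%, and on the opposite strand in 3.13%, against 3.68%. The core letters of ETS factor sites, CCGGAAG, were found on either strand in 20.31%, against 7.37%, and TATAAA in 7.81%, against 5.35%. These are matches of letters in windows around annotated starts, and RefSeq starts can lie some bases away from the start used in these cells.

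The table holds estimated transcripts, that is, counts of unique molecular identifiers (UMIs) after correction for collisions. The 3 plates gave 726230, 1113632 and 1404157 gene UMIs, 3244019 in all, and a cell held between 716 and 13486. Cd4 transcripts were found in 95.7% of cells and Cd3e in 80.6%, whereas Cd8a was found in 1.0% and the B cell gene Cd79a in 1.15%. Of the marker lists of other cells, the most widely found gene was Cd8b1 for CD8 T cells (4.16% of cells), Cd74 for B cells (3.3%), Klrd1 for NK cells (9.04%), Foxp3 for regulatory T cells (8.03%), Alas2 for erythroid cells (0.287%), Mki67 for cycling cells (2.15%) and Ctss for myeloid cells (40.17%). Their part in the results was not tested. The ribosomal RNA precursor Rn45s took 2.09%, 5.16% and 2.43% of UMIs in plates 1, 2 and 3. Each plate used the same set of well barcodes, and 76.6% of the well numbers in use occur in 2 or more plates, so wells were told apart by plate. The labels do not tie the plates to separate mice, so p-values measure how differences vary over these plates, which may be technical.

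Ribosomal protein transcripts took 18.4%, 19.34% and 17.9% of gene UMIs in plates 1, 2 and 3. Because the method counts the 3′ end of each transcript once, a level is given as UMIs per 1000000 gene UMIs (CPM) and is not divided by length. Of the 100 genes of highest mean level in the whole table, 58 were ribosomal protein genes. The 77 standard genes fell into a dense upper group and a short tail: 70 lay at 561 CPM or above with a median of 2431 CPM, and 7 lay at 101.13 CPM or below. The large subunit's 46 standard genes had a median of 2069 CPM and the small subunit's 31 a median of 2727 CPM.

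**Figure D1:**
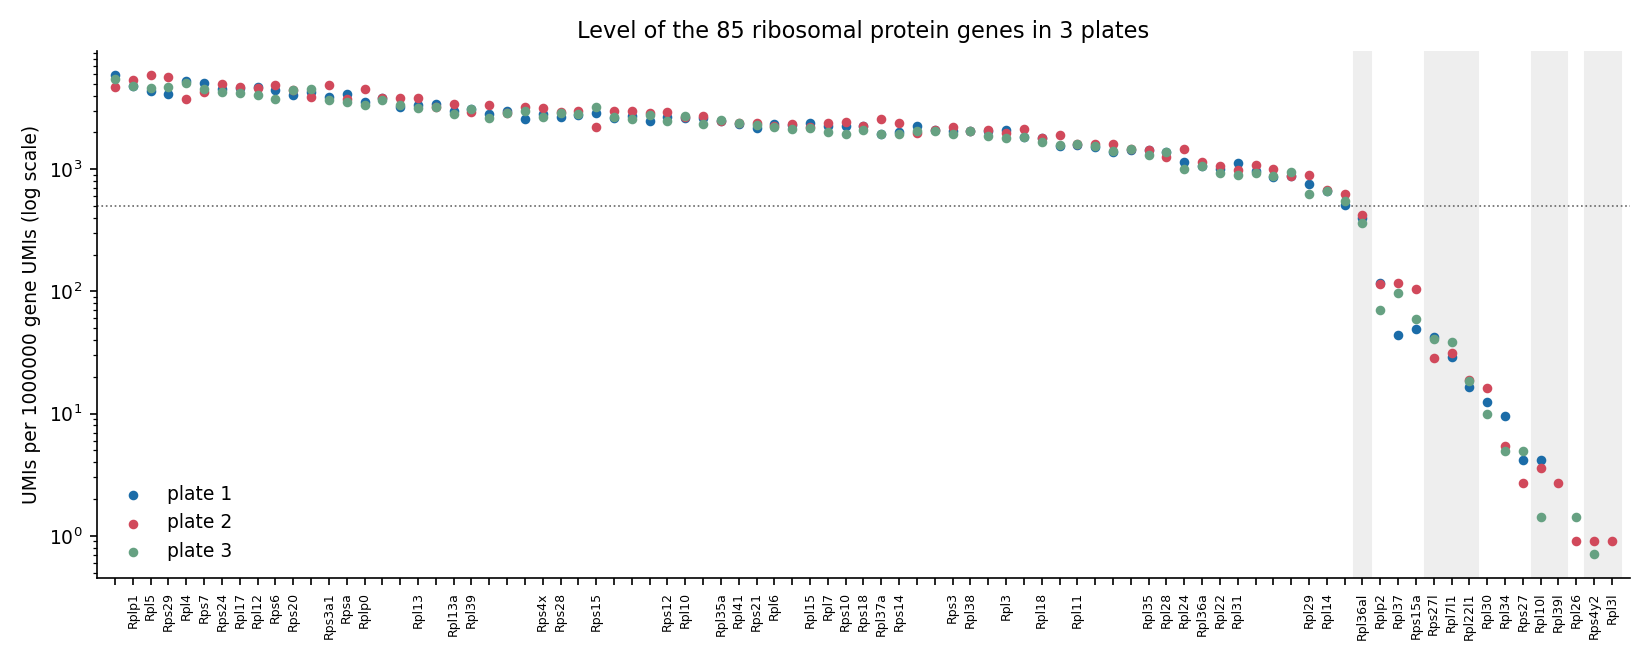
Level of each of the 85 ribosomal protein genes in UMIs per 1000000 gene UMIs (log scale), 1 point per plate, ordered by the mean of the 3 plates, with names under the genes described in the text. Grey bands mark paralogs, the dotted line marks 500 CPM, and a plate with no UMI of a gene has no point; 70 genes form a dense group above the line and the other 15 lie below it.

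Rplp1, 1 of the acidic proteins of the stalk that recruits elongation factors, had 4769, 5323 and 4833 CPM in plates 1, 2 and 3 and was seen in all 697 cells. Rpl5, which carries 5S ribosomal RNA into the large subunit together with Rpl11, had 4336, 5935 and 4595 CPM. Neighbours at the top could not be ranked beyond their spread: Rps29, a zinc-binding small subunit protein, averaged 4837 ± 793 CPM. Rpl4, which lines the exit tunnel for the nascent chain, averaged 4705 ± 822 CPM. Rps7 averaged 4621 ± 394 CPM, Rps24 4613 ± 375.9 CPM, Rpl17 4504 ± 270.9 CPM and Rpl12 4439 ± 357.07 CPM (SD, n = 3 each). Rps6, the small subunit protein that S6 kinases phosphorylate downstream of mTOR, was also among the 10 highest, with 4449, 4902 and 3722 CPM.

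Among the stalk proteins and their base, Rplp1 and Rplp0 were abundant and Rplp2 was not. Rplp0, the protein that anchors the stalk, had 3543, 4496 and 3332 CPM, highest in plate 2. Rplp2, the partner of Rplp1 in the stalk dimers, had 117.04, 115.8 and 70.5 CPM and was seen in 31.13% of cells. Rpsa, a small subunit protein also known as the laminin receptor precursor, had 4139, 3721 and 3527 CPM.

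The 7 standard genes of the lower group were Rplp2, Rpl37 (85.9 ± 37.6 CPM), Rps15a (71.5 ± 29.5 CPM), Rpl30 (12.8 ± 3.1 CPM), Rpl34 (6.67 ± 2.58 CPM), Rps27 (3.94 ± 1.16 CPM) and Rpl26 (0.774 ± 0.720 CPM; SD, n = 3 each). Rpl26 had 3 UMIs in 3 of 697 cells, and in plate 1, where none was counted, a count of 0 allows up to 3 UMIs. Rps27, whose start is shown above, had 13 UMIs in 11 cells. All 7 of these genes have at least 1 other transcript in GENCODE M21 that matches 80% or more of the coding sequence at 98% identity or higher, but so do 59 of the 70 genes of the upper group. Over all cells, matching copies that the table lists held 49.01 CPM for the lower group, among them Rps15a-ps6 with 32.4 CPM, Gm12191 (matching Rpl30) with 11.7 CPM and Wdr89 (matching Rplp2) with 4.62 CPM. No source used here says how reads that map to several places were counted, and the part of this in the low counts was not tested.

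Most paralogs were rare beside their partners. Rpl36al had 399, 425 and 360 CPM and made up 26.4% of the UMIs of the pair with Rpl36a. Rps27l had 120 UMIs against 13 for Rps27, or 90.2% of that pair. Rpl22l1 made up 1.79% of the pair with Rpl22, and Rpl7l1 1.52% of the pair with Rpl7. Rpl10l, known for its expression in testis, had 9 UMIs against 8705 for Rpl10. Rpl39l had 3 UMIs in 1 cell, against 9922 for Rpl39. Rpl3l, known from muscle, had 1 UMI, and Rps4y2, for which the RefSeq table has no entry, had 2. Under the limits for a match given above, no other transcript matched Rps27l, Rpl7l1, Rpl10l, Rpl39l, Rpl3l or Rpl22. Rpl36a and Rpl36al each had matching transcripts, but none from another gene counted here. Rps4y2 had no entry in GENCODE to search with. Whether reads were exchanged within pairs or with copies elsewhere was not tested, so these shares are uncertain.

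The order of the upper group was nearly the same in each plate: over its 70 genes the levels correlated at a Spearman coefficient of 0.957 between plates 1 and 2, 0.984 between plates 1 and 3, and 0.954 between plates 2 and 3. The median coefficient of variation over plates was 7.68%, against 10.6% for the other genes of at least 500 CPM. Those other genes had a lower median level, 863 CPM against 2431 CPM, and the part of this was not tested. Rpl38 hardly moved (2071, 2052 and 2046 CPM), nor did Rpl11 (1584, 1616 and 1607 CPM) or Rpl41, the smallest of the proteins (2329.9, 2376 and 2383 CPM). Plate 2 held the highest value for 46 of the 70 genes and the lowest for 9. Rpl24 varied most, with 1139.9, 1474 and 996 CPM. Rpl4 and Rps15 went the other way from most genes in plate 2: Rpl4 had 5236, 3759 and 5121 CPM, and Rps15 had 2883, 2213 and 3230.3 CPM.

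Within a plate, cells differed in how much of their RNA was ribosomal protein mRNA, and the genes moved together. After each cell was thinned to 2119 UMIs, which 557 cells reached, the share ranged from 9.16% to 31.2% in plate 1, from 7.55% to 34.26% in plate 2 and from 6.84% to 25.7% in plate 3. Its standard deviation over cells was 4.05, 4.38 and 3.76 percentage points, against 0.839, 0.854 and 0.831 points that counting alone would give. Each gene was then correlated over the cells of a plate with the summed UMIs of the other ribosomal protein genes. The median Spearman coefficient over the 74 ribosomal protein genes with at least 0.1 UMIs per thinned cell was 0.33, 0.34 and 0.36 in plates 1, 2 and 3, with a mean of 0.34. For 3085 other genes, correlated with the sum of all ribosomal protein genes, the median was -0.02. The cells of a plate share a library and a total fixed by thinning, so these coefficients are descriptions and carry no test.

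Among genes of at least 0.5 UMIs per thinned cell, all 71 ribosomal protein genes had a positive coefficient in each of the 3 plates, as did 58 of 416 other genes. The highest were Rplp1 (0.51, 0.62 and 0.56 in plates 1, 2 and 3), Rpl12 (0.54, 0.63 and 0.43), Rps29 (0.51, 0.57 and 0.47) and Rpl13 (0.55, 0.48 and 0.51). Rps24, Rpl17 and Rps28 had means of 0.50, 0.47 and 0.45. The lowest of these 71 included the paralog Rpl36al (0.13, 0.15 and 0.11), Rpl24 (0.15, 0.23 and 0.09) and Rpl29 (0.27, 0.14 and 0.10). A gene's coefficient followed its own level (Spearman 0.68 over these 71 genes). At 3 UMIs or more per thinned cell, 59 of them had a median of 0.37 (0.22 to 0.56), against -0.003 for 45 other genes (-0.27 to 0.55).

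**Figure D2:**
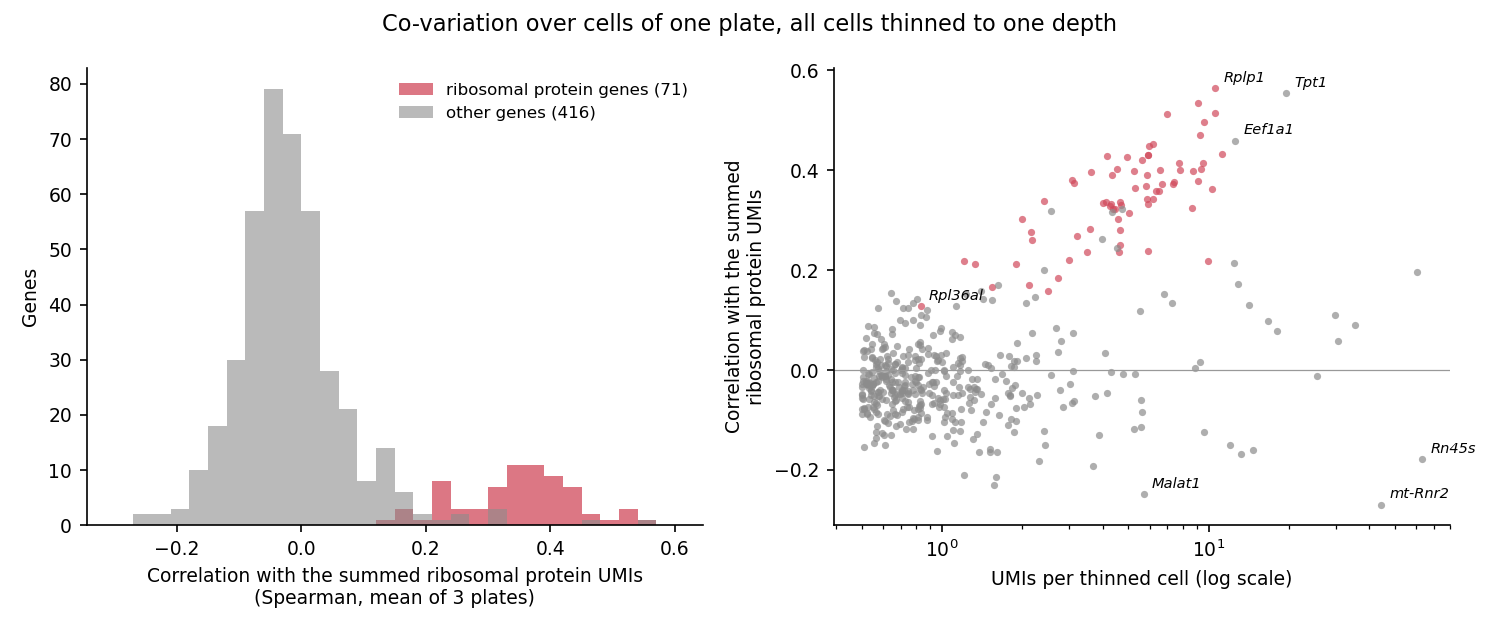
Correlation of each gene with the summed ribosomal protein UMIs over the cells of a plate, as the mean of 3 plates, for genes of at least 0.5 UMIs per thinned cell. The left panel counts genes (71 ribosomal protein genes, 416 others) and the right panel sets the coefficient against the gene's level on a log scale; the ribosomal protein genes lie to the right of most others, with Tpt1 and Eef1a1 among them.

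The sums of the subunits varied together: the large subunit's UMIs correlated with the small subunit's at 0.83, 0.86 and 0.84 in plates 1, 2 and 3. Of the 50 genes of highest mean coefficient, 48 were ribosomal protein genes. The others were Tpt1, itself encoded by a 5′ TOP mRNA (0.52, 0.63 and 0.51), and Eef1a1, which brings aminoacyl-tRNA to the ribosome (0.48, 0.48 and 0.42). Further other genes of high coefficient were Gm9846 (mean 0.32), Gnb2l1 (0.32), the older symbol of the small subunit scaffold Rack1, and the elongation factor subunit Eef1b2 (0.26). Fau (0.24), which encodes a ubiquitin-like protein fused to a small subunit protein, and the actin-binding peptide gene Tmsb4x (0.21) followed. The nucleolar protein gene Npm1 had 0.20, the mitochondrial gene mtAtp6 0.20, and B2m and Fth1 0.17 each.

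Sums over other parts of the translation machinery gave lower coefficients. The sum of 43 other cytosolic translation genes correlated with the ribosomal protein sum at 0.56, 0.69 and 0.67. Mitochondrial ribosomal protein genes, with a mean of 5.42 UMIs per thinned cell in sum, gave 0.10, 0.11 and 0.08, and ribosome biogenesis genes (9.75 UMIs) gave 0.01, 0.17 and 0.12. The sum of transcripts of the mitochondrial genome gave 0.01, -0.05 and 0.03. The lowest coefficients belonged to the mitochondrial ribosomal RNA mt-Rnr2 (mean -0.27), the nuclear RNA Malat1 (-0.25), Smc4 (-0.23), Hmha1 (-0.21), the splicing factor gene Son (-0.21), the phosphatase gene Ptprc, which encodes CD45 (-0.19), Arhgef1 (-0.18) and Rn45s (-0.18). Kcnq1ot1, a nuclear noncoding RNA, gave -0.15, -0.20 and -0.13. When mitochondrial, Rn45s and Kcnq1ot1 UMIs were removed before thinning, the median coefficient of the ribosomal protein genes was 0.33.

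Between cells with High and Low CD5, no ribosomal protein gene passed. The comparison asks whether cells with stronger tonic signals devote more of their transcripts to the ribosome. Of 76 genes tested with edgeR's quasi-likelihood test on sums per plate and class, 0 had a Benjamini-Hochberg adjusted p of 0.05 or lower, beside 9 of 4813 genes in all (0.187%; 0.166% higher and 0.0208% lower). At an unadjusted p under 0.05 there were 2 of 76, beside 6.19% of all genes. DESeq2's Wald test called 0 of the 76, but also 0 of all 4813 genes, so it cannot set these genes apart. The estimates were small, with a median log2 fold change (High over Low) of -0.02, against 0.004 over all genes tested, and 49 of the 76 were negative, against 49.6% of all genes. For 48 of the 70 genes of at least 500 CPM the 95% interval stayed within a 1.2-fold change either way, and for all 70 within 1.5-fold.

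Rpl4 had the smallest p. It had 4828, 3529 and 4584 CPM in High cells of plates 1, 2 and 3, against 5309.6, 4008 and 5289 CPM in Low cells. High cells were lower in each plate although the groups overlap, because plate 2 was low in both. The log2 fold change was -0.17 ± 0.07 (SE; adjusted p = 0.769). Rpl36a had 1002, 937 and 961 CPM in High cells, against 1068.5, 1214 and 1079 CPM in Low cells. Its log2 fold change was -0.21 ± 0.12 (adjusted p = 0.853). Its groups did not overlap, but how many of all genes did the same was not counted. Rpl13a, known from translational control of inflammatory mRNAs, Rps12, Rps4x and Rplp1 also stood among the 6 negative genes of smallest p, at log2 fold changes from -0.17 to -0.13 and adjusted p from 0.791 to 0.819. On the other side, Rps3a1 had a log2 fold change of 0.09 ± 0.07 (adjusted p = 0.931), with 3910.0, 5304 and 3707 CPM in High cells, against 3734.5, 4714 and 3624 CPM in Low cells. Rpl15, Rpl35a, Rpl37a, Rpl31 and Rpl18 lay between 0.08 and 0.11 with adjusted p of 0.961 or higher. Rps6 stood at 0.003 ± 0.069 (adjusted p = 0.996).

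**Figure D3:**
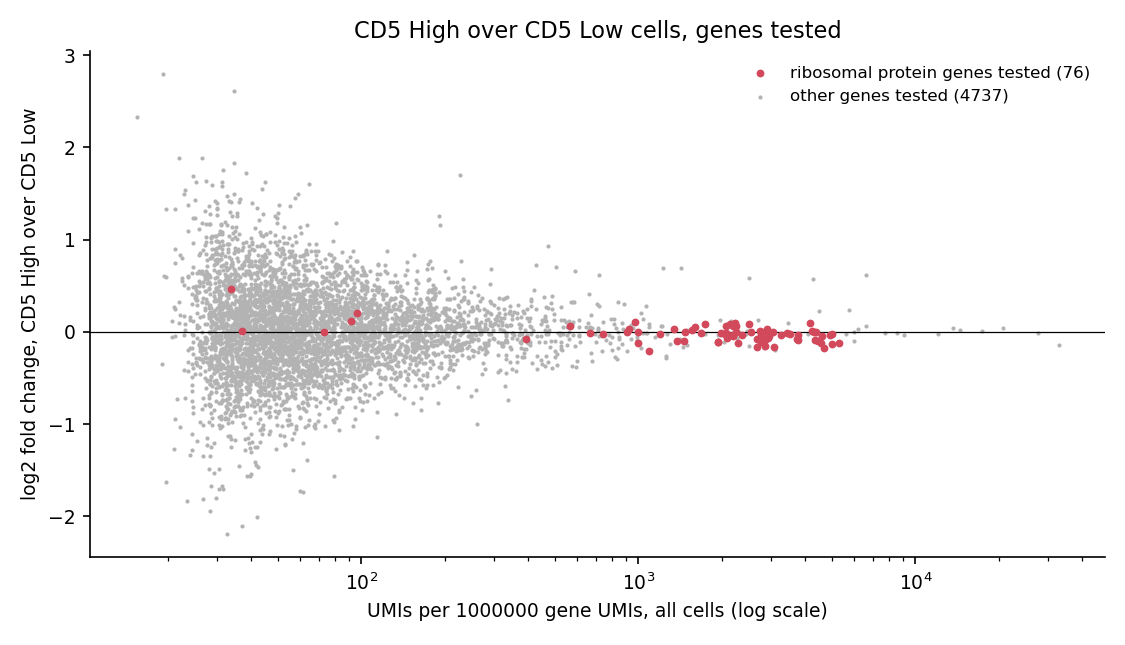
The log2 fold change of CD5 High over CD5 Low cells for each gene tested, against its level in all cells (log scale). Red points are the 76 ribosomal protein genes and grey points the 4737 other genes; the ribosomal protein genes of at least 500 CPM lie between -0.21 and 0.11.

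Summed over all 85 genes, the share of gene UMIs in Low, Middle and High cells was 18.3%, 18.6% and 18.1% in plate 1, 19.8%, 19.31% and 19.03% in plate 2, and 17.8%, 18.2% and 17.1% in plate 3. High cells lay below Low cells in each of the 3 plates, by log2 ratios of -0.014, -0.055 and -0.058 (mean -0.042 ± 0.024, SD, n = 3), a share 0.971 times that of Low cells. The exact sign-flip permutation test over plates, two-sided, gave p = 0.25, which is the smallest that 3 plates allow. Over single cells the share correlated with CD5 fluorescence at a Spearman coefficient of 0.01, -0.06 and -0.06 within plates. High cells also held fewer UMIs (median 3818 per cell, against 4554 in Low cells) and a larger share of Kcnq1ot1 (0.823%, against 0.520%). The part of these in the difference was not tested, and without cells over 2% of Kcnq1ot1 the mean log2 ratio was -0.034.

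The trend over 4 bins of CD5 in each plate likewise held no ribosomal protein gene that passed in edgeR's quasi-likelihood test: 0 of 76 had an adjusted p of 0.05 or lower, beside 7 of 4996 genes (0.14%), and 0 of 76 had an unadjusted p under 0.05, beside 4.82% of all genes. DESeq2's Wald test called 0 as well, beside 3 of 4996 genes. The median slope was -0.001 per log2 unit of CD5, and all 70 genes of at least 500 CPM had 95% intervals within 1.2-fold per log2 unit. Rps12 had the smallest p, with a slope of -0.06 ± 0.03 (SE; adjusted p = 0.997), and was negative in each plate. Rps4x, Rpl4, Rpl13a, Rpl35 and Rplp1 followed on the negative side, and Rplp2, Rpl18, Rpl37a, Rps3, Rpl6 and Rpl7 led the positive side; none passed. Plate 2 stood apart in depth and Rn45s, and without it the counts between High and Low and over the trend were still 0.

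The related lists gave no call over CD5 either. Between High and Low cells, 40 other cytosolic translation genes, 47 ribosome biogenesis genes and 42 mitochondrial ribosomal protein genes were tested. The last list held 24 tested genes of the mTOR pathway or regulators of ribosomal protein mRNA, Myc included. In each list 0 passed, with median log2 fold changes of -0.007, -0.008, -0.04 and 0.04 in that order. The translation genes of smallest p were Eef1g (-0.32 ± 0.14) and Eif4a2 (-0.31 ± 0.15), both with an adjusted p of 0.791. Myc, a transcription factor that drives ribosome production, stood at 0.96 ± 0.45 (adjusted p = 0.791) and was positive in each plate. Utp6, a factor of small subunit assembly, stood at 1.75 ± 0.65 (adjusted p = 0.746).

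Whether the share or single genes followed the number of UMIs per cell was asked next. That number reflects RNA content as well as capture and sequencing depth, which this ranking cannot tell apart. RNA-rich and RNA-poor are names of the bins. Within each plate, cells were ranked by gene UMIs other than ribosomal protein UMIs and split into 4 bins of equal size, with medians of 1689.7, 3193, 5195 and 7939.9 gene UMIs per cell from the RNA-poor to the RNA-rich bin. The summed ribosomal protein share over these bins, from poorest to richest, was 20.01%, 18.4%, 19.02% and 17.7% in plate 1, 20.9%, 19.4%, 18.96% and 19.23% in plate 2, and 17.2%, 18.4%, 17.5% and 18.0% in plate 3. RNA-rich cells were lower than RNA-poor cells in plates 1 and 2 and higher in plate 3, by log2 ratios of -0.18, -0.12 and 0.06 (mean -0.08 ± 0.13, SD, n = 3; exact sign-flip permutation test, two-sided, p = 0.5). The UMIs used for the ranking are part of the denominator of the share. With cells ranked by all gene UMIs instead, the mean was -0.01.

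**Figure D4:**
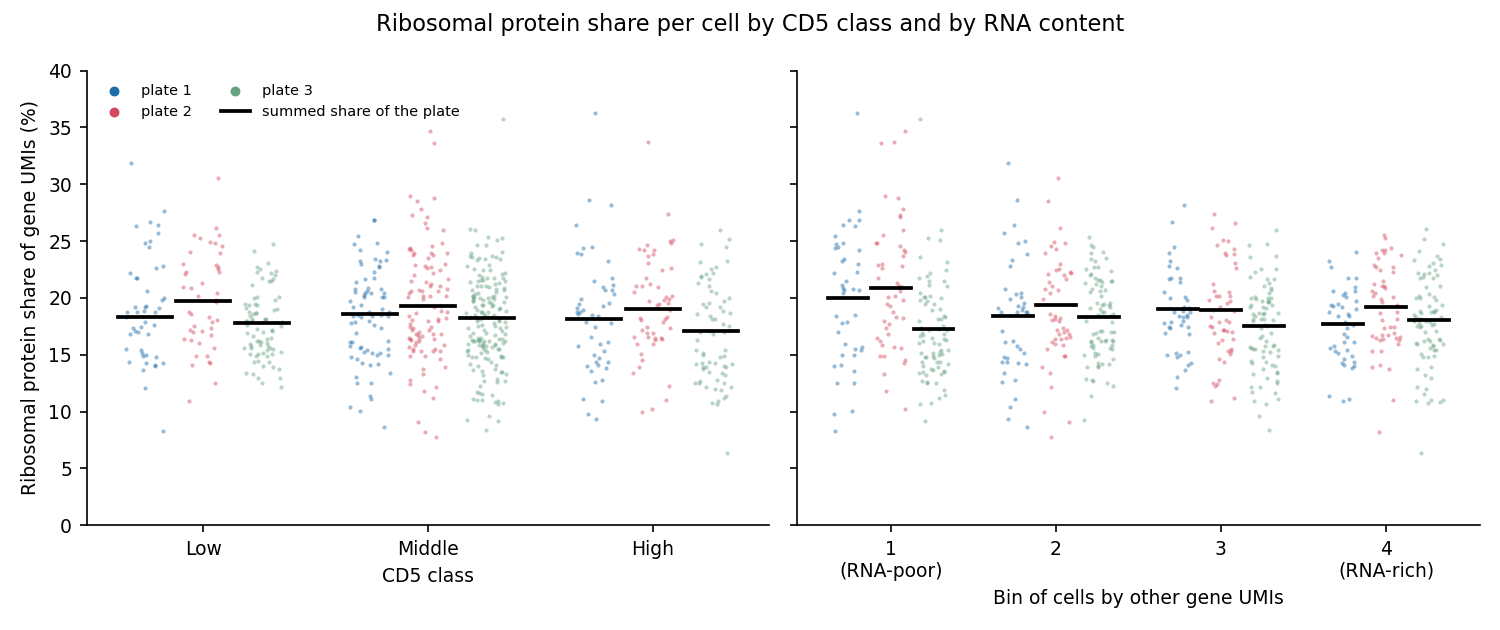
Ribosomal protein share of gene UMIs (%) per cell, coloured by plate, over the CD5 classes (left) and over 4 bins of cells ranked by other gene UMIs within each plate (right). Black bars give the share of the summed UMIs of each plate; the bars lie between 17.1% and 19.8% over the classes and between 17.2% and 20.9% over the bins.

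Between RNA-rich and RNA-poor bins, 6 of 75 ribosomal protein genes tested passed, 5 lower and 1 higher in RNA-rich cells. Over all 4302 genes tested, 0.604% passed as lower and 0.256% as higher (0.86% in all). The median log2 fold change of the 75 genes was -0.11, against 0.02 over all genes, and 49 were negative. The cells were ranked without the UMIs of these genes, and the part of this in the shift was not tested. With cells ranked by all gene UMIs instead, the median was 0.009 and 36 of 75 were negative. Without plate 1 it was 0.03, and 36 of 76 were negative. The genes that fell were Rpl39, Rps21, Rps7, Rps29 and Rps14, and the gene that rose was Rpl14. Rps14 is known from human 5q deletion anaemia and Rps7 from human Diamond-Blackfan anaemia.

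Rpl39, a short protein of the exit tunnel (chrX:37082518-37085222), had 2647, 2632 and 2900.0 CPM in RNA-rich cells of plates 1, 2 and 3, against 4045, 3799.6 and 3700.4 CPM in RNA-poor cells. The groups did not overlap, and the log2 fold change was -0.55 ± 0.11 (SE; edgeR adjusted p = 0.00293). Rps21 (chr2:180257379-180258444), whose start is shown above, had 1721, 2267 and 2094 CPM in RNA-rich cells, against 3132.5, 3058 and 2569.6 CPM in RNA-poor cells, again without overlap. Its log2 fold change was -0.57 ± 0.12 (adjusted p = 0.00959). Rps7 (chr12:28630847-28635953) had 4615, 4079 and 4376 CPM in RNA-rich cells, against 6768, 5516 and 5201 CPM in RNA-poor cells (log2 fold change -0.47 ± 0.10, adjusted p = 0.0105). These 3 genes were lower in RNA-rich cells of every plate.

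Rps29 had 3611, 5218 and 4263 CPM in RNA-rich cells, against 5058, 6865 and 5150.1 CPM in RNA-poor cells (log2 fold change -0.44 ± 0.10, adjusted p = 0.0210). It was lower in each plate, although plate 2 was high in both groups and the groups overlapped. Rps14 had 1767, 2263 and 1969 CPM in RNA-rich cells, against 2785, 3482 and 1997 CPM in RNA-poor cells (-0.49 ± 0.13, adjusted p = 0.0483). Its difference came from plates 1 and 2, since in plate 3 the log2 ratio was -0.02, and with cells thinned to one depth the log2 fold change was -0.10 (adjusted p = 0.893). Rpl14 (chr9:120571517-120574653), a large subunit protein with an annotated 5′ TOP start, had 774, 764 and 761 CPM in RNA-rich cells, against 398, 490.0 and 463 CPM in RNA-poor cells. It was higher in each plate without overlap, by a log2 fold change of 0.70 ± 0.17 (adjusted p = 0.0306).

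Below the threshold on the lower side stood Rps20 (log2 fold change -0.39 ± 0.10, adjusted p = 0.0510), and on the higher side Rpsa (0.25 ± 0.11, adjusted p = 0.398), Rplp0 (0.24 ± 0.11, 0.409), Rpl18 (0.26 ± 0.13, 0.483), Rps3 (0.25 ± 0.12, 0.483) and Rpl3 (0.24 ± 0.12, 0.512). The calls depended on which plates entered the fit. Without plate 1, 0 of the genes passed, beside 17 of 5257 in all, and without plate 2, 0, beside 13 of 4377. Without plate 3, 6 passed as lower and 0 as higher, beside 33 of 4191 in all. Ranked by gene UMIs per spike-in UMI, which sets content against the added standard, 0 of 76 passed, beside 31 of 4753 in all. With cells thinned to one depth 1 of 73 passed (Rpsa, higher), beside 17 of 1830.

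Coding length ran along with these differences, a pattern chosen after the values were seen. Over the 70 genes of at least 500 CPM, the log2 fold change (RNA-rich over RNA-poor) correlated with coding length in GENCODE M21 at a Spearman coefficient of 0.56, and within plates 1, 2 and 3 at 0.55, 0.56 and 0.38. Of the 24 shortest, with coding lengths of 75 to 420 bases, 22 were negative, with a median log2 fold change of -0.28. Of the 23 longest, with 588 to 1257 bases, 9 were negative, with a median of 0.05. Rpl39, Rps29 and Rps21 have 51, 56 and 83 codons, whereas Rps7 has 582 and Rpl14 651 coding bases. For the other genes of at least 500 CPM, of which 81.76% had a known coding length, the coefficient was 0.28, and 0.39, 0.14 and 0.11 within plates 1, 2 and 3. For 3928 other genes of any level it was 0.15. The difference between the groups of genes was not tested. Between High and Low CD5 the coefficient over the 76 ribosomal protein genes was -0.05. Genes are not independent replicates, and the coefficients are descriptions with no test. The relation to length was computed with the first ranking of cells only, not with thinned cells or the other rankings.

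**Figure D5:**
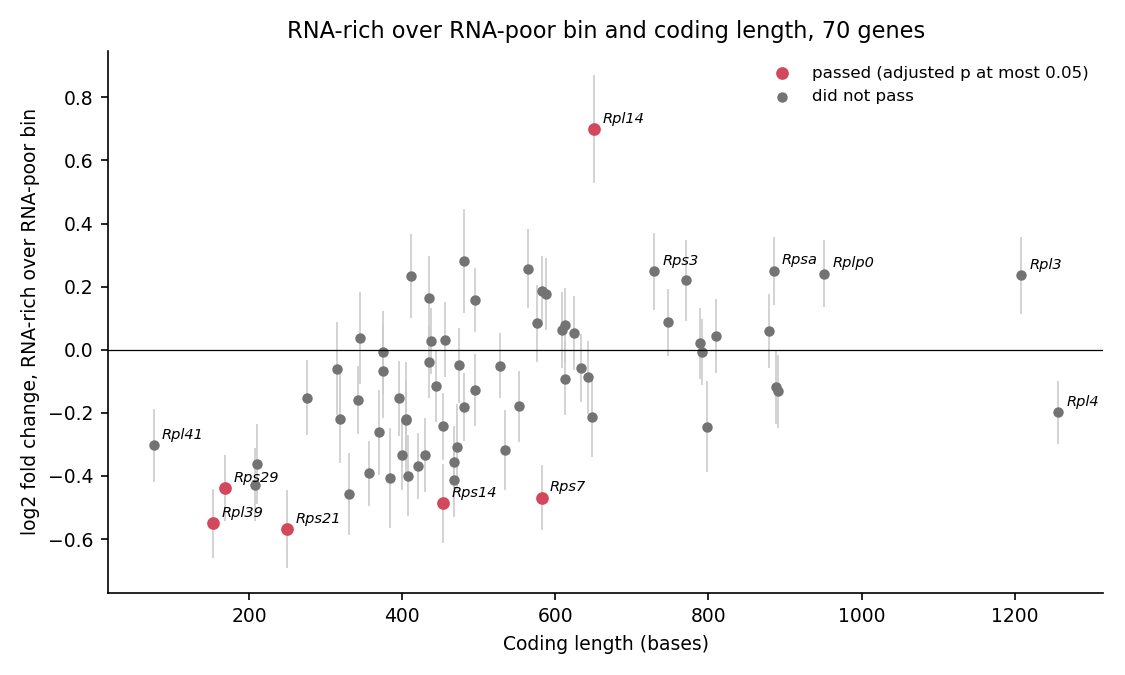
The log2 fold change of RNA-rich over RNA-poor bins against coding length in bases for the 70 ribosomal protein genes of at least 500 CPM, with standard errors as bars and genes that passed in red. Of the 24 shortest genes 22 lie below 0, and of the 23 longest 14 lie above 0.

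RNA-rich cells also held more Rn45s (4.0% of UMIs, against 2.07% in RNA-poor cells) and less Kcnq1ot1 (0.536%, against 1.28%), while transcripts of the mitochondrial genome took 14.2% and 14.8%. Their part in the difference was not tested. Without cells over 2% of Kcnq1ot1, 10 of 75 genes passed, 9 lower and 1 higher, beside 29 of 4312 genes in all. Among the related lists, 1 of 40 other cytosolic translation genes passed: Eef1g, a subunit of elongation factor 1, was higher in RNA-rich cells by a log2 fold change of 0.78 ± 0.18 (adjusted p = 0.0210). The elongation factor Eef2 stood at 0.49 ± 0.14 (adjusted p = 0.108). Of 43 ribosome biogenesis genes, 32 mitochondrial ribosomal protein genes and 24 genes of the mTOR and regulator list, 0 passed in each. The medians were 0.03, 0.02 and 0.02.

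Over single cells, the share of ribosomal protein UMIs had little relation to depth. Its Spearman coefficient with all gene UMIs was -0.08, -0.04 and 0.15 in plates 1, 2 and 3, with spike-in UMIs 0.20, -0.02 and 0.10, and with the mitochondrial share -0.09, -0.002 and -0.02. With the Rn45s share it was -0.05, -0.26 and -0.15, and with the Kcnq1ot1 share -0.09, -0.21 and -0.21. The signs with depth thus differed between plates, while those with Rn45s and Kcnq1ot1 were negative in each. Shares of 1 total are linked through that total, so these values are descriptions as well.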

How the data were processed

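Sorted single cells were profiled by SORT-seq, which is CEL-Seq2 in plates. The authors deposited expected counts, estimated from UMIs of 6 bases and not scaled between cells; 0.812% of values were not whole. Reads were mapped with BWA to mm10, per the submitters' processing notes; its version and the handling of reads with several matches are in no source used here. The deposited CD5 fluorescence is a signal per cell, and the CD5 class is the authors'. Spike-ins entered no fit.

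Counts were summed per plate and class (9 sums) or bin (12 sums), rounded, and tested with edgeR 4.0.16 (quasi-likelihood, TMM, filterByExpr) in R 4.3.3, with the plate as a block because sums of a plate share a library and sequencing; p-values were Benjamini-Hochberg adjusted over all genes tested. A gene's dispersion was drawn towards others (38.4 prior and 4 residual degrees of freedom between classes). DESeq2 1.42.0 was an alternative. Shares were compared by exact sign-flip permutation over 3 plates. Copies were sought with BLAST 2.17.0 in GENCODE M21, and starts and positions come from RefSeq on GRCm38.p6, the assembly of mm10. Python 3.11.15 with numpy 2.4.6, pandas 2.3.3, scipy 1.17.1 and matplotlib 3.10.9 did the rest. The 95% intervals come from the edgeR fits of all sums, Middle class and inner bins included. They cover variation over plates with a spread drawn mostly from other genes, not each gene's own variation alone. The block takes out differences in level between plates. The limit of 3 counts covers counting error only.

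The ribosomal protein genes and the lists were chosen with earlier results of these data known. The rule for named genes takes the 10 highest and 6 lowest by level, paralog pairs, Rplp0, Rplp1, Rplp2 and Rpsa, up to 12 passing genes per direction or else those of smallest p up to 6, the 8 highest and 5 lowest by correlation, the 12 highest and 8 lowest other genes, and up to 4 genes per list. Some genes that this rule takes are not reported here. Alternatives covered scaling, test, filter, block, left-out plates, thinning, cell filters and ranking.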

Additional observations from a re-analysis of the deposited data

How the results depend on the processing

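Between High and Low CD5 and in the CD5 trend, the count of ribosomal protein genes that passed was 0 under each of the 14 alternatives run. Left-out plates were included. Some alternatives called no gene at all, so they cannot set the ribosomal protein genes apart. Between High and Low these were DESeq2's Wald test and the fits without the block, plate 1 or plate 3. In the trend they were the fits without the block, plate 1 or plate 3. The mean log2 share ratio of High over Low cells stayed negative under each of its 9 alternatives. The count between RNA-rich and RNA-poor bins, 6, depended on the processing. It was 12 by DESeq2's Wald test, beside 41 of 4302 genes in all. At a mean of at least 50 counts it was 11 of 71 (42 of 639 in all), and without cells over 2% of Kcnq1ot1 10 (29 of 4312). It was 3 without a filter on low counts, all higher (42 of 13959), and 3 with cells ranked by all UMIs (32 of 4331). With cells thinned to one depth it was 1 (17 of 1830), and with cells ranked by UMIs per spike-in UMI 0 (31 of 4753). Without the replicate block it was 0 (9 of 4302). Leaving out 1 plate gave 0 to 6, beside 13 to 33 genes in all. Without a filter the median log2 fold change of all genes moved to 0.21, and that of the ribosomal protein genes to 0.06. Rpl39, Rps21, Rps7, Rps29, Rps14 and Rpl14 kept their direction under each of 16 alternatives, but lost the call under 6, 6, 7, 8, 12 and 6 of them. Their log2 fold changes ran from -0.61 to -0.36 for Rpl39 (adjusted p up to 0.239), -0.67 to -0.36 for Rps21 (0.475), -0.54 to -0.14 for Rps7 (0.739), -0.52 to -0.26 for Rps29 (0.579), -0.68 to -0.10 for Rps14 (0.893) and 0.55 to 0.88 for Rpl14 (0.282). The cause of these shifts was not tested. The median correlation of 0.34 was 0.40 without thinning and 0.41 at the median depth. Directions turned for genes that had not passed: between High and Low, Rpl15 ran from -0.012 to 0.23 with 1 plate left out and Rpl18 was at -0.041 with thinned cells, and in the trend Rpl18 was at -0.012 and Rpl13a at 0.014 with thinned cells and Rpl7 ran from -0.017 to 0.059 with 1 plate left out. Low counts left 9 of the 85 genes, 4 standard genes and 5 paralogs, below the filter for testing between High and Low. Among low genes that were tested, Rplp2, Rpl37, Rps15a, Rps27l and Rpl7l1 had standard errors of 0.33 to 0.59, against a median of 0.085 for the 70 genes of at least 500 CPM.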
